A study of Mus musculus with 8 samples.

Results

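The signalling lymphocytic activation molecule (SLAM) family and its adaptors were described here as 9 genes given by name, and all 9 were among the 13245 genes of the deposited table. They are the receptor genes Slamf1, Slamf6, Slamf7, Cd244a, Ly9, Cd48 and Cd84 and the adaptor genes Sh2d1a and Sh2d2a. All 9 also had a mean of at least 1 CPM (read counts scaled to library size, with the size adjusted between libraries by the trimmed mean of M-values, TMM) and so entered the test with 11503 genes in all. The RNA came from mouse lymph node CD8 T cells sorted as Ly6C+ and CXCR3+, a memory phenotype population per the series title. One group was wild type C57BL/6 (B6) and the other CD103Tg, a line described as overexpressing CD103, an integrin alpha chain whose gene is Itgae, with 4 libraries each. The promoter of the transgene, the age and sex of the mice, their background strain and the number of founder lines are not given in the sources used here. Nor do the labels say whether each replicate was its own animal, and the p-values reflect no more than the spread of these libraries, which may be technical.

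SLAM receptors are immunoglobulin-superfamily proteins of blood cells. Most of them bind themselves on a neighbouring cell, whereas CD244 (2B4, encoded by Cd244a) binds CD48. The tails of most members carry tyrosine motifs that recruit SAP, the SH2 adaptor encoded by Sh2d1a, which brings in the kinase Fyn. In the absence of SAP the same motifs can recruit inhibitory phosphatases, so the adaptor sets whether contact activates or restrains the cell. In CD8 T cells SLAM receptors take part in killing, in contact with B cells and in the development of innate-like memory cells. Slamf6 (Ly108) is widely used as a marker of stem-like CD8 T cells and Slamf7 (CRACC, CS1) of cytotoxic ones. TSAd, the T cell-specific adaptor encoded by Sh2d2a, is a separate SH2 adaptor that binds the kinase Lck.

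Among the 7 receptor genes, 1 was called higher in CD103Tg and 2 were called lower. Slamf7 rose 2.25-fold in CD103Tg, Slamf6 fell to 0.589 of the B6 level and Cd84 to 0.840, while Sh2d2a rose 1.32-fold and Sh2d1a 1.24-fold. Ly9, Cd48, Cd244a and Slamf1 did not pass the test. In counts, 5 of 9 members (55.6%) passed at an adjusted p under 0.05 (limma on log2(CPM + 1), Benjamini-Hochberg over all 11503 genes), 3 higher and 2 lower. Over all genes tested the share was 31.2%, with 17.4% higher and 13.8% lower. The median log2 fold change of the 9 members was 0.17, against -0.0052 for all genes tested.

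All 7 receptor genes lie in 1 cluster on chromosome 1 (GRCm38, chr1:171559193-171953170, a span of 394 kb), in the order Cd244a, Ly9, Slamf7, Cd48, Slamf1, Cd84 and Slamf6. Sh2d1a lies on the X chromosome (chrX:42502453-42529330) and Sh2d2a on chromosome 3 (chr3:87846755-87855722). RefSeq promoter windows (GRCm38.p6) were at hand for 6 members. The 250 bases before the start site are shown for the 3 receptor genes that passed the test, since their transcripts rose (Slamf7) or fell (Slamf6, Cd84) from the same cluster. They are written 5′ to 3′ along the gene, from chr1:171649000-171649249 (minus strand) for Slamf7, chr1:171917212-171917461 (plus strand) for Slamf6 and chr1:171839447-171839696 (plus strand) for Cd84. The RefSeq start of Slamf7 lies 4036 bases inside the GENCODE span of the gene, and those of Slamf6 and Cd84 lie 53 and 0 bases from the start of their GENCODE spans. Capitals mark letters that matched any of 8 motifs of factors with known roles in CD8 T cells, searched on both strands.
Slamf7: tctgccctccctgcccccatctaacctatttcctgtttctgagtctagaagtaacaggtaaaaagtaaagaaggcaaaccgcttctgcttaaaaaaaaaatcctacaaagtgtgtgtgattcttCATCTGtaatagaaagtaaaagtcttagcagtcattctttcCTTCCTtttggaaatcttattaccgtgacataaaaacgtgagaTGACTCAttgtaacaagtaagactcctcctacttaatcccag
Slamf6: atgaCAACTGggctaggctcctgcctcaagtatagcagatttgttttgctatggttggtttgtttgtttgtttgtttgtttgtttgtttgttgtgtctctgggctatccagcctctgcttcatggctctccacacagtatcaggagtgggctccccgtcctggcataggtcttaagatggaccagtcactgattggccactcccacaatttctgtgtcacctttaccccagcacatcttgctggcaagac
Cd84: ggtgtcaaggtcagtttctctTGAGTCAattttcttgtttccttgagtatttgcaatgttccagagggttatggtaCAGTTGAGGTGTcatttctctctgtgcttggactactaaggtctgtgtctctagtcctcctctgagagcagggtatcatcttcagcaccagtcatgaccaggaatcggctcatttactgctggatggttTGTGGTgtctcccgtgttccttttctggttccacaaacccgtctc

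The motifs searched were the T-box letters AGGTGT, the TCF/LEF core CTTTGA, the RUNX core TGTGGT, the ETS core AGGAAG, the E-box CANNTG, the core of the interferon-stimulated response element, the AP-1 site TGANTCA and the STAT site TTCNNNGAA. In the Slamf7 window the AP-1 letters began 42 bases before the start site, the ETS letters 85 bases (on the other strand) and the E-box letters 126 bases. The Slamf6 window held 1 match, an E-box 246 bases before the start. The Cd84 window held RUNX letters 45 bases and T-box letters 168 bases before the start, an E-box at 174 and AP-1 letters at 229. The E-box and T-box matches of Cd84 stand side by side without sharing a base. Of 32851 RefSeq windows of this length, 66.2% held the E-box, 29.5% the ETS core, 14.0% the RUNX core, 13.8% the TCF/LEF core, 11.8% the T-box letters, 7.02% the STAT site, 6.75% the AP-1 site and 2.98% the interferon response core. These matches describe the letters in the windows and were not measured as binding. The Slamf7 window was the poorest in G and C of the 6, at 38.0% against 46.0% to 53.2% in the others and a median of 52.4% over all windows.

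Itgae, the gene of the transgene product, was measured first as a check of the labels. It stood at 41.4, 51.4, 37.5 and 174 CPM in B6 replicates 1 to 4 and at 3469, 4692, 4169 and 5509 CPM in CD103Tg replicates 1 to 4, so the groups did not overlap. Estimated reads over the listed genes ranged from 50187279 to 56371476 per library. The cell identity and sort markers Cd3d, Cd3e, Cd3g, Cd8a, Cd8b1, Ly6c2, Cxcr3 and Cd44 summed to 8303 to 9582 CPM in B6 and 8350 to 9406 CPM in CD103Tg. Of the 8, 1 (12.5%, against 31.2% of all genes tested) was called, Cd8a (log2 fold change -0.24, limma adjusted p = 0.00602). Cxcr3 did not pass, although all B6 libraries lay above all CD103Tg libraries (-0.17, limma adjusted p = 0.0529). Nor did Cd8b1 (-0.19, limma adjusted p = 0.0792). The median log2 fold change of the 8 was -0.08.

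Markers of other cell types were also counted, because SLAM receptors are expressed by B cells, plasma cells, NK cells and myeloid cells as well. Over all genes tested, 17.4% were called higher and 13.8% lower. Of 8 B cell markers 5 were listed and 3 tested, of which 2 rose. The sum of the 5 was 31.2 to 35.5 CPM in B6 and 33.8 to 43.4 CPM in CD103Tg, and it is mostly Cd79b. Cd79b did not pass, at 29.9 to 34.2 CPM in B6 and 27.9 to 35.6 CPM in CD103Tg. The 2 that rose were Cd79a, from a mean of 0.585 to 1.86 CPM, and Ebf1, from 0.0657 to 1.99 CPM. Ms4a1, which encodes the B cell surface protein CD20, was at 0.0975 to 0.383 CPM in B6 and 0.745 to 1.76 CPM in CD103Tg. All 3 plasma cell markers tested rose, with a sum of 61.1 to 78.9 against 102 to 226 CPM. The largest part of that sum is Xbp1, from a mean of 67.5 to 99.6 CPM. Jchain rose from a mean of 0.319 to 9.46 CPM (log2 fold change 2.52) and Igkc from 1.32 to 35.9 CPM (3.45). Over the CD103Tg libraries Igkc ranged from 5.77 to 85.2 CPM. Of 8 NK cell markers 6 were tested and 5 rose, with a sum of 1548 to 1696 against 2440 to 3163 CPM that is mostly Nkg7. Ncr1, which defines NK cells, was at 0.345 to 0.660 CPM in B6 and 0.183 to 0.613 CPM in CD103Tg. Among the NK cell markers that rose, Klrb1c went from a mean of 3.55 to 6.97 CPM, Tyrobp from 2.13 to 4.56 CPM and Klra8 from 0.885 to 2.78 CPM. Fcer1g, at 2.79 and 2.30 CPM, did not pass. Klra4, an NK cell marker too low to be tested, went the other way, from 1.32 to 2.42 CPM in B6 to between 0 and 0.0810 CPM in CD103Tg.

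Myeloid markers varied widely, from a sum of 5.06 to 71.2 CPM in B6 and 16.7 to 102 CPM in CD103Tg. The largest part is Lyz2, at 2.42 to 55.0 CPM in B6 and 9.42 to 78.3 CPM in CD103Tg, which did not pass. Of 5 tested 1 was called, Cd68, from a mean of 1.32 to 3.70 CPM, and the median log2 fold change was 0.99. Of 5 dendritic cell markers tested 4 rose (96.3 to 117 against 166 to 209 CPM, mostly Bst2). Of 3 gamma-delta T cell markers 2 rose, Tcrg-C1 and Tcrg-C2 (sum of all 3, 15.5 to 23.9 against 41.7 to 94.5 CPM). The third, Trdc, did not pass and its groups overlapped (log2 fold change 0.26, limma adjusted p = 0.236). Its mean was 10.8 CPM for B6 libraries, against 13.0 CPM for those of CD103Tg. The 2 listed CD4 T cell markers summed to at most 1.95 CPM in B6 and 0.447 CPM in CD103Tg, and none was tested. All 6 proliferation genes rose (67.5 to 101 against 281 to 441 CPM). Ebf1 and Mzb1 were listed at 0 in B6 replicate 1, Flt3 and Cd209a in B6 replicate 2, Siglech in B6 replicate 4 and Klra4 in CD103Tg replicate 3. The part of these cells in the SLAM values was not tested. In bulk libraries fewer expressing cells and less RNA per cell cannot be told apart.

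**Figure D1:**
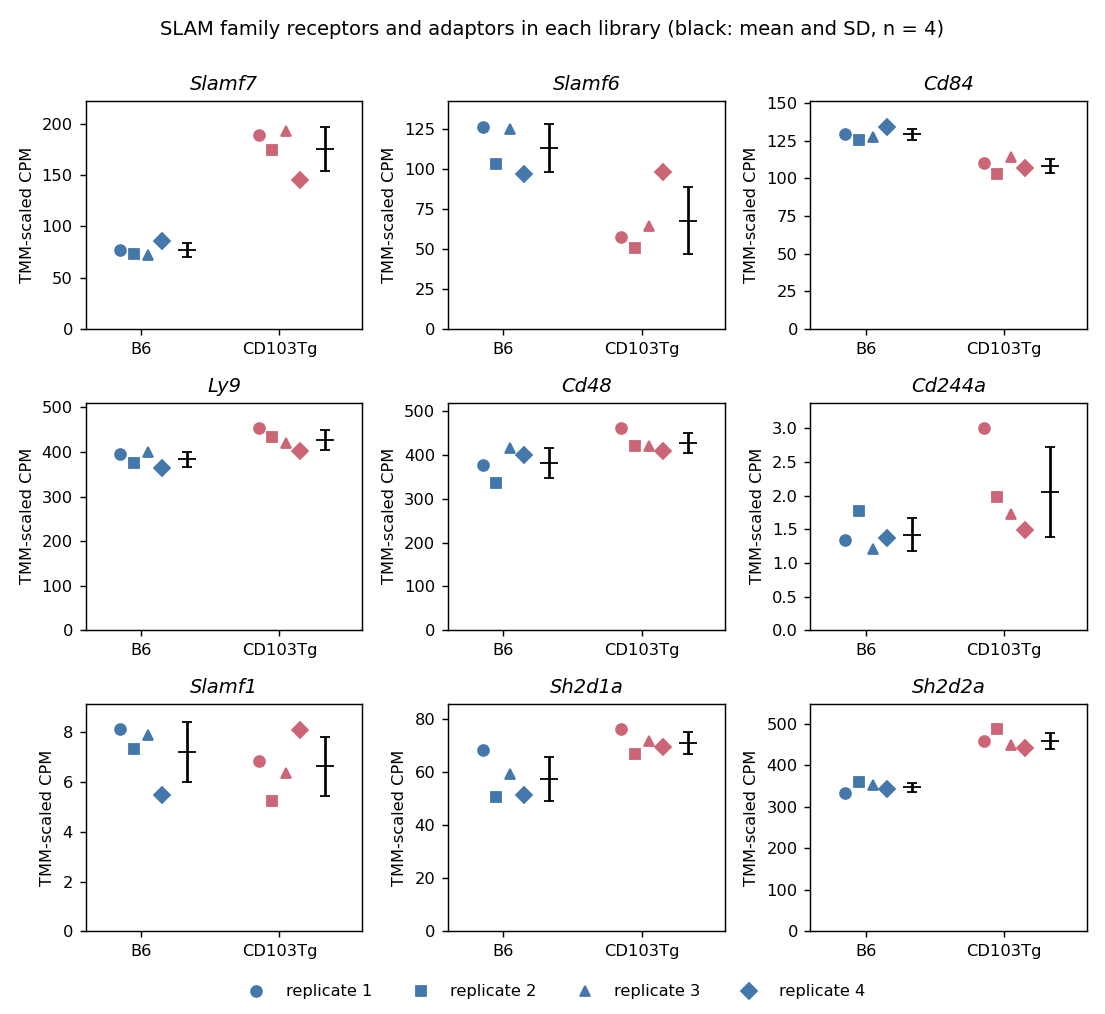
TMM-scaled CPM (vertical axes, from 0) of the 9 genes in each of the 4 B6 (blue) and 4 CD103Tg (red) libraries, with the mean and SD in black and a symbol per replicate number. All CD103Tg libraries lie above all B6 libraries for Slamf7, Ly9 and Sh2d2a and below them for Cd84, while Slamf6 of CD103Tg replicate 4 (98.1 CPM) lies among the B6 libraries.

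Slamf7 encodes a self-binding receptor of NK cells, cytotoxic T cells and plasma cells, which signals through the adaptor EAT-2 rather than SAP. It was at 77.0, 73.1, 72.1 and 86.2 CPM in B6 replicates 1 to 4 and at 189, 175, 193 and 145 CPM in CD103Tg replicates 1 to 4. The groups did not overlap, and the lowest CD103Tg library, replicate 4, stood well above the highest B6 library, which was also replicate 4. Its mean of 77.1 ± 6.42 CPM in B6 became 176 ± 21.8 CPM in CD103Tg (SD, n = 4 each), with a log2 fold change of 1.17 ± 0.09 (SE; limma adjusted p = 5.08e-06; 95% interval of the fold 1.96 to 2.59). By absolute fold change it ranked at the 96.2th percentile of all genes tested. Of the 11503 genes, 31% had groups without overlap.

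An antisense gene model, Gm37787 (chr1:171634879-171636022), lies within Slamf7 on the other strand and shares 423 exonic bases with it. Gm37787 was at 0.543, 0.690, 0.641 and 1.02 CPM in B6 and 1.73, 2.39, 1.84 and 1.97 CPM in CD103Tg, and it rose with Slamf7 (log2 fold change 0.79 ± 0.14, limma adjusted p = 0.00147). Without strand in the libraries, a read from the shared bases could belong to either gene.

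Slamf6 encodes Ly108, a self-binding receptor that couples strongly to SAP. It was at 126, 103, 125 and 96.9 CPM in B6 and at 57.7, 50.7, 64.4 and 98.1 CPM in CD103Tg. CD103Tg replicates 1 to 3 were lower than every B6 library, and replicate 4 overlapped the B6 range. The mean was 113 ± 15.1 CPM in B6 against 67.7 ± 21.0 CPM in CD103Tg, with a log2 fold change of -0.76 ± 0.17 (limma adjusted p = 0.00591; 95% interval of the fold 0.454 to 0.764). Without CD103Tg replicate 4 the log2 fold change was -0.96 (limma adjusted p = 0.000103), and without both libraries numbered 4 it was -1.02 (limma adjusted p = 4.78e-05), a setting chosen after seeing the data because these libraries had the highest Itgae of their groups.

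The start of Slamf6 is crossed by another antisense model, Gm37065 (chr1:171909957-171919356). They overlap by 1842 bases and share 0 exonic bases. Without strand, a read from an unspliced Slamf6 transcript in the overlap cannot be told by strand from one of Gm37065. Gm37065 was at 1.94, 1.66, 2.40 and 1.33 CPM in B6 and 0.407, 0.486, 0.391 and 0.842 CPM in CD103Tg. Its groups did not overlap, and its highest CD103Tg library and its lowest B6 library were those numbered 4, as for Slamf6. Its log2 fold change was -0.88 ± 0.16 (limma adjusted p = 0.00177). Near 1 CPM the pseudocount of 1 understates the change of both antisense models: with a pseudocount of 0.1 the log2 fold change of Gm37787 was 1.36 and that of Gm37065 was -1.64, and with a pseudocount of 5 they were 0.29 and -0.30.

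The balance of both receptors was expressed as the ratio of Slamf6 to Slamf7 CPM within each library. It was 1.64, 1.41, 1.73 and 1.12 in B6 and 0.305, 0.290, 0.334 and 0.676 in CD103Tg. All 4 CD103Tg ratios were below all 4 B6 ratios, with replicate 4 of each group nearest to the other group. The mean log2 ratio was 0.54 ± 0.28 in B6 and -1.40 ± 0.57 in CD103Tg (SD, n = 4 each), a difference of -1.94. These genes were paired with their changes known, so the ratio is a description and no test is given.

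Cd84, a self-binding receptor that also uses SAP and is known from T cell contact with B cells, showed the smallest spread of the 9 genes in both groups. It was at 130, 125, 127 and 134 CPM in B6 and at 110, 103, 114 and 107 CPM in CD103Tg, without overlap. The fall from 129 ± 3.82 to 108 ± 4.73 CPM was a log2 fold change of -0.25 ± 0.05 (limma adjusted p = 0.00305; 95% interval of the fold 0.778 to 0.907). Its SD of 2.96% of the mean in B6 and 4.37% in CD103Tg compares with 13.3% and 31.1% for Slamf6.

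Ly9 encodes CD229, a self-binding receptor of T and B cells. It stood at 395, 375, 400 and 364 CPM in B6 and at 454, 434, 419 and 402 CPM in CD103Tg. The lowest CD103Tg library was just above the highest B6 library, and the log2 fold change of 0.16 ± 0.06 did not pass (limma adjusted p = 0.0515; 95% interval of the fold 1.02 to 1.21). It passed with array weights (limma adjusted p = 0.0390), with the replicate number as a block (0.0382) and without CD103Tg replicate 4 (0.0300), and over the 20 other settings its adjusted p ranged from 0.0300 to 0.143.

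Cd48 encodes the lipid-anchored ligand of CD244, present on most blood cells and without a signalling tail. It was at 377, 336, 416 and 400 CPM in B6 and 462, 420, 420 and 410 CPM in CD103Tg, where replicate 4 fell below B6 replicate 3. Its log2 fold change of 0.17 ± 0.07 did not pass (limma adjusted p = 0.0962; 95% interval of the fold 1.01 to 1.25). Its receptor gene Cd244a was at 1.34, 1.77, 1.21 and 1.37 CPM in B6 and 3.01, 1.98, 1.73 and 1.49 CPM in CD103Tg, and B6 replicate 2 lay above CD103Tg replicates 3 and 4. Cd244a rested on 63 to 148 estimated reads per library and had a log2 fold change of 0.32 ± 0.16 (limma adjusted p = 0.172; 95% interval of the fold 0.970 to 1.60). The high value of CD103Tg replicate 1 widened its spread to 32.5% of the mean, and without that library the log2 fold change was 0.18. At this low level the value also moved with the scale, to 0.13 with a pseudocount of 5, 0.47 with a pseudocount of 0.1 and 0.49 with voom, none of which passed.

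All of Ly9 lies within the span of Cd244a on the opposite strand, an overlap of 18787 bases with 0 exonic bases in common. Ly9 held 19232 to 22520 estimated reads per library. Here too strand is unknown, so a read from an unspliced Ly9 transcript cannot be told by strand from one of Cd244a, and the low Cd244a level is given with that limit.

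Slamf1 encodes SLAM itself (CD150), a self-binding receptor found on activated T cells and B cells. It was low, at 8.12, 7.33, 7.86 and 5.46 CPM in B6 and 6.85, 5.23, 6.35 and 8.08 CPM in CD103Tg. The groups overlapped throughout, with the library numbered 4 lowest in B6 and highest in CD103Tg. Its log2 fold change was -0.10 ± 0.14 (limma adjusted p = 0.630), and the 95% interval of the fold, 0.747 to 1.16, leaves room for a fall or a small rise.

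Sh2d1a, the SAP gene, was at 68.3, 50.5, 59.2 and 51.4 CPM in B6 and 76.1, 66.5, 71.5 and 69.5 CPM in CD103Tg. One CD103Tg library, replicate 2, was below B6 replicate 1. The means were 57.4 ± 8.28 and 70.9 ± 4.02 CPM, with a log2 fold change of 0.31 ± 0.09 (limma adjusted p = 0.0246; 95% interval of the fold 1.08 to 1.42). The call was lost without B6 replicate 2 (limma adjusted p = 0.0701), B6 replicate 4 (0.0588), CD103Tg replicate 1 (0.0681), CD103Tg replicate 3 (0.0575) or both libraries numbered 4 (0.0696). Tenm1, on the opposite strand, shares 1465 exonic bases with Sh2d1a and was not among the genes of the deposited filtered table.

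Sh2d2a, the TSAd gene, showed a tighter rise. It was at 333, 360, 351 and 342 CPM in B6 and 457, 487, 448 and 441 CPM in CD103Tg. The groups were well apart, with SDs of 3.36% and 4.44% of the mean. The means were 347 ± 11.6 and 458 ± 20.4 CPM, with a log2 fold change of 0.40 ± 0.05 (limma adjusted p = 0.000136; 95% interval of the fold 1.22 to 1.43).

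To set the genes beside each other, CPM was divided by the length of each gene's merged GENCODE exons. In B6 libraries the level was 321 ± 29.2 CPM per kb for Cd48, 116 ± 5.08 for Ly9, 58.4 ± 1.96 for Sh2d2a, 20.6 ± 0.610 for Cd84, 16.8 ± 1.40 for Slamf7, 10.4 ± 1.50 for Sh2d1a, 10.4 ± 1.39 for Slamf6, 1.17 ± 0.195 for Slamf1 and 0.292 ± 0.0503 for Cd244a (SD, n = 4). The ligand gene Cd48 thus led and its receptor gene Cd244a came last. Neighbours in this order did not overlap between libraries, except Sh2d1a and Slamf6. In CD103Tg libraries Slamf7, at 38.4 ± 4.76 CPM per kb, stood above Cd84, at 17.3 ± 0.755 CPM per kb, and the order was otherwise the same, with no neighbours overlapping. With the length of the longest transcript in place of merged exons, 3 ranks changed, those of Slamf7, Sh2d1a and Slamf6 in B6, and none in CD103Tg.

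**Figure D2:**
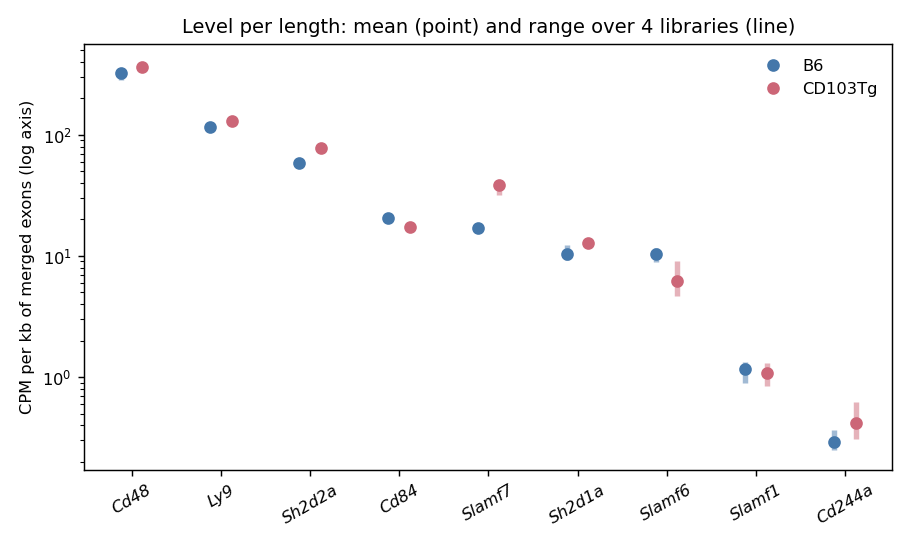
Level per length of the 9 genes in CPM per kb of merged exons (log axis), with points for the mean and lines for the range over 4 libraries of B6 (blue) and CD103Tg (red). Cd48 stands highest and Cd244a lowest in both groups, and Slamf7 lies below Cd84 in B6 and above it in CD103Tg.

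The 33 other genes tested within the cluster and 1 Mb on either side were set beside the receptors. Of these, 2 were called higher, 1 was called lower and 30 did not pass (over all genes tested, 31.2% were called), and their median log2 fold change was 0.02. The 3 called were both antisense models described above and Igsf8, an immunoglobulin-superfamily gene outside the cluster (log2 fold change 0.34 ± 0.09, limma adjusted p = 0.0138). Igsf8 is named because the count is small, after its value was seen. Along the chromosome the receptors stood at 0.32 (Cd244a), 0.16 (Ly9), 1.17 (Slamf7), 0.17 (Cd48), -0.10 (Slamf1), -0.25 (Cd84) and -0.76 (Slamf6) in log2 fold change.

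**Figure D3:**
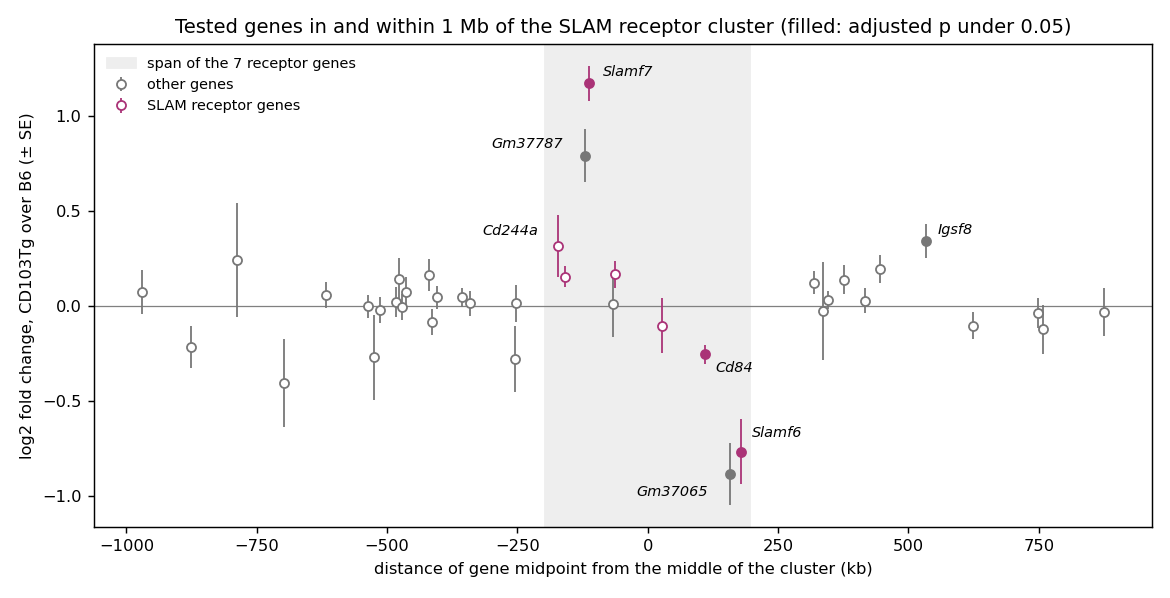
Log2 fold change, CD103Tg over B6 (± SE), of the 7 SLAM receptor genes (purple) and 33 other tested genes (grey) against the distance of each gene's midpoint from the middle of the cluster, in kb. Filled points passed at an adjusted p under 0.05; outside the grey span of the cluster 1 gene, Igsf8, is filled.

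The other genes of the pathway were taken from a list of 30 receptors, adaptors, kinases and phosphatases that act with SLAM receptors, SAP or TSAd. Of these, 25 were tested: 7 rose, 4 fell and 14 did not pass (44% called against 31.2% of all genes tested), with a median log2 fold change of 0.05. The SLAM receptors Slamf8 and Slamf9, the SAP-related adaptors Sh2d1b1 and Sh2d1b2 and the transcription factor Zbtb16 were not among the genes of the deposited filtered table.

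Among the kinases, Fyn, the SAP partner, rose. It was at 669, 624, 689 and 693 CPM in B6 and 912, 928, 897 and 801 CPM in CD103Tg, without overlap (log2 fold change 0.40 ± 0.06, limma adjusted p = 0.000587). Lck, which TSAd binds, was at 2249 ± 91.0 and 2322 ± 183 CPM (log2 fold change 0.04 ± 0.07, limma adjusted p = 0.698).

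The inhibitory enzymes did not move one way. Inpp5d, which encodes the lipid phosphatase SHIP-1, rose from 255 ± 13.8 to 329 ± 23.5 CPM without overlap (log2 fold change 0.36 ± 0.06, limma adjusted p = 0.00117). Ptpn6, which encodes the tyrosine phosphatase SHP-1, fell from 1020 ± 54.7 to 881 ± 67.4 CPM (log2 fold change -0.21 ± 0.07, limma adjusted p = 0.0318). The Ptpn6 call was lost in 6 of 20 other settings, 5 of them leaving out 1 library, with adjusted p up to 0.0912. Dok1 and Dok2, adaptors that damp Ras signalling, rose by 0.31 ± 0.08 and 0.66 ± 0.10 on the log2 scale (limma adjusted p = 0.0146 and 0.000648).

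Of the proximal signalling adaptors and the enzymes below them, Malt1 fell by 0.47 on the log2 scale (limma adjusted p = 4.69e-05) and Pik3r1, a regulatory subunit of PI3 kinase, by 0.26 (0.0292), while Plcg2 rose by 0.65 (0.0121) and Lat by 0.20 (0.0455). The calls of Lat and Pik3r1 were lost in 8 and 6 of 20 other settings, and those of Dok1 and Plcg2 without both libraries numbered 4 (limma adjusted p = 0.0582 and 0.0512). Cd2, a receptor related to the SLAM family that binds CD48 in mice, was at 614 ± 29.9 and 670 ± 45.4 CPM and did not pass (log2 fold change 0.13 ± 0.06, limma adjusted p = 0.155). The partner count was 7 without B6 replicate 3 and 7 without CD103Tg replicate 3, against 11 with all libraries.

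**Figure D4:**
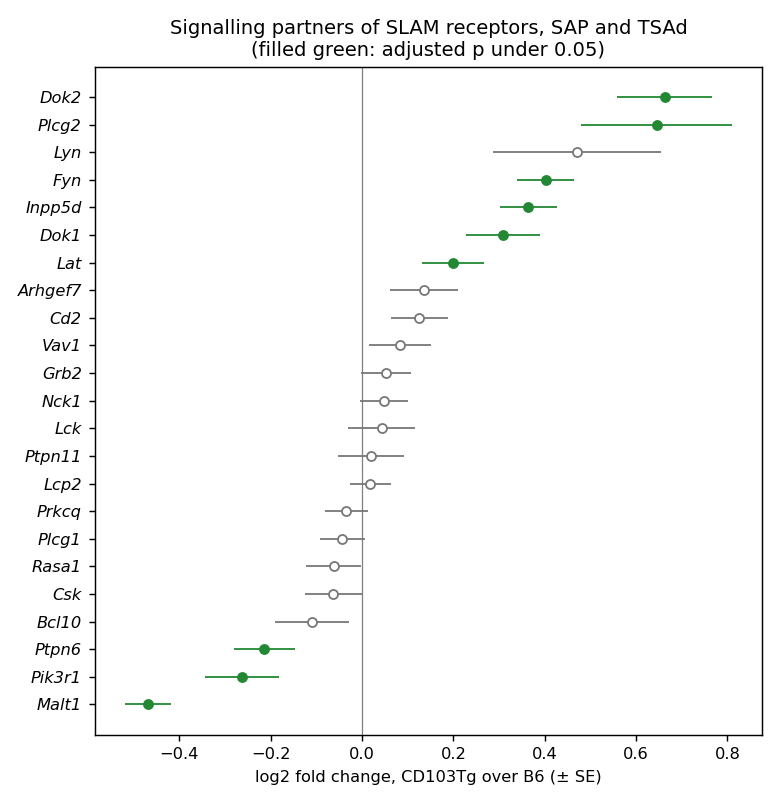
Log2 fold change, CD103Tg over B6 (± SE), of 23 of the 25 tested signalling partners, ordered by value. Filled green points passed at an adjusted p under 0.05, 6 to the right of 0 and 3 to the left, from Malt1 at -0.47 to Dok2 at 0.66.

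Genes with profiles most like those of Slamf7 and Slamf6 were sought among 9962 tested protein-coding genes by the root mean square difference over the 8 libraries in log2(CPM + 1), each gene centred on its own mean. For Slamf7 the closest were F2rl2 (0.0559), Plekhf1 (0.0842) and Jaml (0.0846). Jaml was at 155 to 179 CPM in B6 and 341 to 387 CPM in CD103Tg, with replicate 4 the lowest of the CD103Tg libraries, as for Slamf7. For Slamf6 the closest were Ptprs (0.0885), Slc12a2 (0.137) and Hspb11 (0.148). Ptprs was at 26.4, 22.1, 22.2 and 19.3 CPM in B6 and 11.0, 9.38, 13.5 and 18.2 CPM in CD103Tg, with CD103Tg replicate 4 nearest to B6. These genes were picked for their likeness over the same 8 libraries. A replicate 4 pattern like that of Slamf7 or Slamf6 therefore follows from the choice and is no separate observation.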

How the data were processed

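The authors deposited 1 table whose values, per the labels, are CPM on a TMM-scaled library size of a filtered gene set, a normalized gene-level signal and not counts. For GRCm38 (mm10), the tools STAR 2.7.0f, RSEM, cutadapt 1.18 and bcl2fastq 2.17 are listed in the submitters' processing notes. No filter rule or annotation is given in the sources used here. All 13245 versioned gene IDs matched GENCODE M21, from which GRCm38 coordinates were taken. Per the labels' protocols the libraries were made with SMART-Seq v4 and Nextera XT, which mark neither strand nor molecules.

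In each column the step of 1 read was taken as the value that made the largest share of low values whole multiples, 0.0171 to 0.0203 CPM. Divided by that step, 63.0% to 65.2% of values came out whole (tolerance 0.005), so these are estimated reads, used for depth and for limma voom. Replicate pairs differed by 22.0 to 58.8 times the counting variance, so none was counted as a copy.

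The test was limma 3.58.1 (R 4.3.3; lmFit, then trended eBayes, no covariate, two-sided) of log2(CPM + 1) in genes averaging 1 CPM or more, called at a Benjamini-Hochberg adjusted p under 0.05. Fold changes are on that scale, CD103Tg over B6, and 95% intervals use the moderated standard error. The fit was tested on simulated data. Python 3.11.15, pandas 2.3.3 and matplotlib 3.10.9 were used for annotation and figures. The members, lists, tests and the rule for named genes (all members, 7 set partners and every called one, the 6 neighbouring genes of smallest p, and 3 genes each most like the members with the largest rise and fall) were chosen with earlier results of these data known. Alternatives were other pseudocounts, filters and scalings, robust eBayes, array weights, voom, a replicate block and leaving out libraries. A few genes of the lists enter the counts and are not reported here by name.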

Additional observations from a re-analysis of the deposited data

How the results depend on the processing

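Slamf7, Slamf6, Cd84 and Sh2d2a kept their direction and their call in all 20 other settings, with log2 fold changes of 1.12 to 1.31, -1.02 to -0.64, -0.29 to -0.23 and 0.37 to 0.42. Slamf1, Cd48 and Cd244a (19 settings, since a minimum mean of 5 CPM removes it) passed in none, with limma adjusted p of 0.0919 or more, 0.0548 or more and 0.0941 or more. Ly9 passed with array weights (log2 fold change 0.15) and the replicate block (0.16), and without single libraries it ranged from 0.13 to 0.18, passing without CD103Tg replicate 4. Sh2d1a ranged from 0.25 to 0.40 without single libraries and was at 0.27 without both libraries numbered 4, a setting chosen after seeing the data. Members called numbered 4 to 6 and genes called 2771 to 3968, 3531 with voom, 3514 of them shared with the reported calls. Quantile normalization gave 1741 higher and 1995 lower, and equal totals 1759 and 1850, against 2000 and 1592, and the members' calls were 3 higher and 2 lower under both. Partner genes called ranged from 7 to 11 without single libraries, where all genes called ranged from 2771 to 3583, and the cause was not tested. The Slamf6 to Slamf7 log2 difference ranged from -2.22 to -1.81 without single libraries. With longest transcripts 3 ranks of the order by length changed. The replicate numbers were not shown to pair libraries: deviations of same-numbered libraries correlated at 0.221, 0.350, -0.0807 and 0.123, and not every library correlated best with its own number. With the replicate block 3682 genes, 6 members (Ly9 added, limma adjusted p = 0.0382) and 12 partners were called. With 63 to 148 estimated reads per library, depth limits Cd244a most.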

Other observations

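Of the genes within 250 kb of Sh2d2a on chromosome 3, 10 were tested, 3 rose and 2 fell (31.2% of all genes tested were called), with a median log2 fold change of 0.06. Iqgap3, a scaffold gene of dividing cells, rose from 0.770 ± 0.294 to 4.99 ± 1.16 CPM (log2 fold change 1.75 ± 0.17, limma adjusted p = 2.56e-05), Pear1 from 27.9 ± 1.98 to 41.6 ± 3.97 CPM (0.56 ± 0.08, limma adjusted p = 0.000392) and Naxe from 34.0 ± 1.73 to 44.6 ± 3.99 CPM (0.38 ± 0.08, limma adjusted p = 0.00295). The value of Iqgap3, a low gene, moved to 2.57 with a pseudocount of 0.1, 2.71 with voom and 0.79 with a pseudocount of 5, and it stayed called. Gpatch4 fell from 55.6 ± 2.91 to 45.9 ± 3.87 CPM (-0.28 ± 0.07, limma adjusted p = 0.0135). Near Sh2d1a on the X chromosome 1 gene, Stag2, was tested and did not pass (-0.14 ± 0.05, limma adjusted p = 0.0725).

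The libraries numbered 4 stood at the end of their group nearest the other group for Slamf6 and Slamf7, as with the 96.9 CPM (B6) and 98.1 CPM (CD103Tg) of Slamf6. They also had the highest Itgae of their groups. Of the 6 proliferation genes, 5 were lowest of B6 in replicate 4, where Tyms was the highest, and 5 were highest of CD103Tg in replicate 4, all but Ccnb1. As these genes rose in CD103Tg, the lowest of B6 and the highest of CD103Tg lie farthest from the other group. That is opposite to Slamf6 and Slamf7. With 1 library of each group this is given as values, and its cause was not tested.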
